A study of Mus musculus with 2 samples.

Results

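The replication-dependent histone genes encode the linker histone H1 and the core histones H2A, H2B, H3 and H4 that package newly copied DNA. The genes described here are those with a symbol starting Hist1h or Hist2h and at least 10 unique molecular identifiers (UMIs) summed over the called cells of both libraries. Of 67 such gene rows among 46983 in the deposited tables, 54 reached that sum: 5 of class H1, 12 of H2A, 15 of H2B, 11 of H3 and 11 of H4. Of the 52 found by identifier in the GENCODE M21 annotation of GRCm38, 44 lay on chromosome 13 and 8 on chromosome 3. The other 13 rows held 19 UMIs in all, and 9 of them held 0. Hist1h3h entered with 10 UMIs, and Hist1h1t, just outside, held 8.

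Transcripts of these genes are made mostly while DNA is being copied, and in their usual form they end in a conserved stem-loop rather than a poly(A) tail. The stem-loop is bound by SLBP, which takes part in the trimming, export, translation and decay of the message. The libraries were primed with poly(dT), which binds poly(A), so the counts rest on polyadenylated or internally A-rich forms and need not follow the usual form. Some of these genes are also known to be used outside replication, through polyadenylated transcripts.

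The study profiled tdTomato+ cells sorted from the islets of Langerhans of 9-day-old mice on the droplet-based 10x Chromium 3′ platform. The control library came from Neurod1 Cre/+; Isl1f/+ mice, which carry 1 floxed allele of Isl1, a transcription factor gene of the islet endocrine lineage, and the Isl1CKO library from Neurod1 Cre/+; Isl1f/f mice. Both groups thus carry the tdTomato reporter and the Cre, which is driven from Neurod1, a gene of the endocrine lineage, and the control animals keep a single unfloxed Isl1 allele beside the Cre. The pancreases of 6 pups, as the labels' count of pooled samples is read here, went into each genotype's pool, so each genotype is 1 library, no difference has a replicate check and no p-value is given; actinomycin D, an inhibitor of transcription, was present during perfusion and trypsin dissociation of both.

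After filtering, 2502 control cells with a median of 22647 UMIs and 2991 Isl1CKO cells with a median of 25027 UMIs remained, and the libraries shared 4 cell barcodes. Endocrine transcripts such as Chga were abundant in both libraries (14962 and 28930 CPM, a unit defined next), and marker sets of acinar, erythroid, ductal and mesenchymal cells were also counted in both. Islet hormone transcripts took 53.3% of control and 12.2% of Isl1CKO UMIs. Levels are therefore given as UMIs per 1000000 UMIs outside the hormone genes Ins1, Ins2, Iapp, Gcg, Sst, Ppy, Pyy and Ghrl, written CPM. Isl1 itself stood at 542 CPM (control) and 522 CPM (Isl1CKO); the labels do not say which stretch is floxed, and 3′ counts from outside it would not check the labels. Intervals in parentheses are exact 95% intervals and cover counting error only, not differences between animals or pools. In these pooled sums fewer cells with a transcript and less transcript per cell cannot be told apart, so per-cell values are added for the main members.

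The stem-loop is the feature that sets the usual form of these messages apart from poly(A) messages. A fixed pattern limits how much the forms found can vary, and forms outside it would be missed. The histone stem-loop was searched by its pattern of 16 bases on the sense strand of annotated transcripts: arms of 6 bases that pair fully, the first starting GG and ending T, around a loop of 4 bases with T at position 2 and C or T at positions 1 and 3. It was present in 32 of the 52 matched members, against 109 of 58797 protein-coding transcripts in the annotation (0.185%), which came from 79 genes, 44 of them with a symbol starting Hist. The windows below are GENCODE M21 transcript sequences, 5′ to 3′, with the arms of the stem in capitals, and stand for the 6 forms found.

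Hist1h1c: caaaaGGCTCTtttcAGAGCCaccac
Hist1h4d: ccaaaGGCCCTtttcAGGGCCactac
Hist1h3c: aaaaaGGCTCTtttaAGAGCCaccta
Hist1h4i: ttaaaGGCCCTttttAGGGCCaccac
Hist1h4b: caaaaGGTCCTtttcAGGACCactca
Hist2h2ac: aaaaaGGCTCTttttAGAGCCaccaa

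The form of Hist1h1c was shared by 17 members of classes H1, H2A, H2B and H3. The form of Hist1h4d was found in 5 members, all H4, and those of Hist1h4i and Hist1h4b in 2 H4 members each. The form of Hist1h3c was found in 3 H3 and 2 H2B members, and that of Hist2h2ac in Hist2h2ac alone. The arms of Hist1h4d, Hist1h4i and Hist1h4b thus occurred in H4 members only, among the 32.

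Members also differed in where the annotated transcript ends. In 16 members it ended within 100 bases of the stem-loop (median 32 bases after it), and in 16 it ran on for 100 bases or more (median 603). Among the second set were Hist1h1c (840 bases), Hist1h1e (1153) and Hist1h4d (770). The other 20 matched members, among them Hist1h1b, Hist1h2bc and Hist2h2be, had no such stem-loop within any annotated transcript. Some of these models are short, such as those of Hist1h4k (312 bases), Hist1h2bl (381) and Hist1h2ai (393). A model that stops before the stem-loop cannot show it, so its absence here describes the annotation and not the transcript.

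The libraries were first split by the cell cycle. A cell was called cycling when its UMIs of Top2a, a DNA topoisomerase, Cdk1, the mitotic kinase, and Rrm2, a subunit of ribonucleotide reductase, summed to at least 5. Of 2502 control cells 99 met this rule (3.96%, 3.23 to 4.796), as did 141 of 2991 Isl1CKO cells (4.71%, 3.98 to 5.54). Thinned to 5000 UMIs per cell, which left out 3 Isl1CKO cells, 1.96% and 2.38% met it. Thinning took hormone UMIs with the others, and hormones took 53.3% of control and 12.2% of Isl1CKO UMIs. It therefore did not make depth outside the hormones equal between the libraries. The cutoff is a range and not a type: 21 control and 39 Isl1CKO cells held 3 or 4 of these UMIs.

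Histone transcripts were concentrated in the cycling cells of both libraries. The 54 members summed to 7933 CPM in control cycling cells (7807 to 8060) and 1189 CPM in the other control cells (1177 to 1201), a ratio of 6.67 (6.55 to 6.80). In Isl1CKO cells the sums were 6239 CPM (6170 to 6309) and 1153 CPM (1145 to 1161), a ratio of 5.41 (5.34 to 5.48). Cycling cells held 28.5% of control and 29.9% of Isl1CKO histone UMIs but 5.63% and 7.30% of all UMIs outside the hormones. Per cell, the median level was 3097 CPM in control cycling cells and 966 CPM in the rest, and 3548 and 1036 CPM in Isl1CKO. The cells overlapped: the 10th percentile of cycling cells was 428 CPM for control and 490 CPM for Isl1CKO, below the medians of the rest.

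For single genes the comparison was limited to those with at least 10 UMIs expected in the smaller set from the total of both sets. A ratio of at least 2 was counted. At a given level in the rest, a gene higher in cycling cells passes this filter more easily than one lower there. Of the members, 26 passed in control cells and 21 of these were at least 2-fold higher in cycling cells, where 7.43% of all 10769 genes passing were. In Isl1CKO cells 31 members passed and 25 were at least 2-fold higher, against 6.0% of 12036 genes. None of the members passing was at least 2-fold lower, against 7.95% and 10.2% of genes. The median ratio of the members passing was 15.9 in control and 9.33 in Isl1CKO, and that of all genes passing 0.912 and 0.849. Members held mostly by the few cycling cells could pass through those cells alone, so these counts describe the members passing and not the 54.

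**Figure D1:**
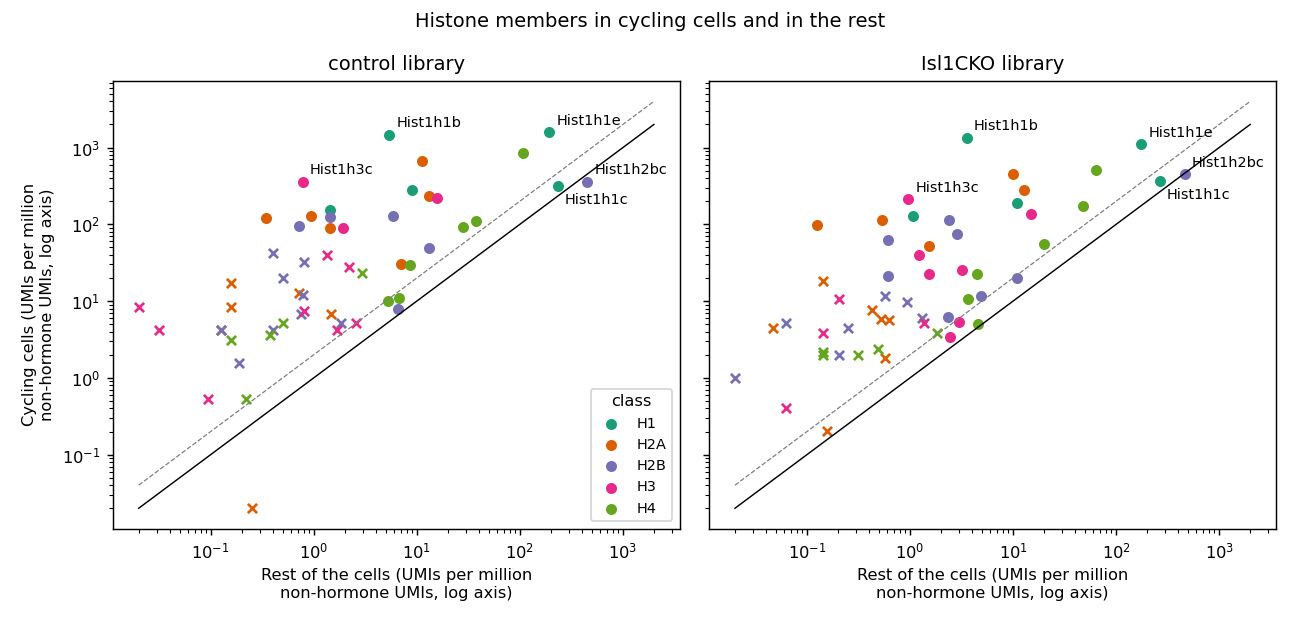
Level of each of the 54 members in cycling cells (vertical, UMIs per 1000000 non-hormone UMIs, log axis) against the other cells (horizontal, same unit, log axis) of the control (left) and Isl1CKO (right) library, coloured by histone class; crosses are members with under 10 expected UMIs, values of 0 are drawn at 0.02, and the solid and dashed lines mark ratios of 1 and 2. Most points lie above the dashed line, while Hist1h2bc and Hist1h1c lie near the solid line.

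Among the H1 genes, Hist1h1b (GRCm38 chr13:21779883-21780625, minus strand, single exon) marked the cycling cells most sharply. Its 2825 UMIs in control cycling cells gave 1479 CPM (1425 to 1534) and its 173 UMIs in the rest 5.41 CPM (4.63 to 6.28), a 273-fold ratio. In Isl1CKO cells the levels were 1347 CPM (1315 to 1380) and 3.56 CPM (3.11 to 4.06), a 378-fold ratio. Its transcript shares no 50-base stretch with another annotated gene. Every cell with at least 10 UMIs of Hist1h1b was a cycling cell by the rule, 41 of 41 in control and 70 of 70 in Isl1CKO, and no cell of the rest held more than 6. A UMI of Hist1h1b was found in 63 of 99 control cycling cells (63.6%) and 108 of 141 Isl1CKO ones (76.6%), against 4.54% and 4.81% of the rest.

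Barcodes too poor in UMIs to be cells give the make-up of free RNA in the control library. In 94072 control barcodes with 10 to 100 UMIs, Hist1h1b stood at 17.2 CPM from 9 UMIs (7.84 to 32.6). The level in the rest was 5.41 CPM. Some other members were near or above their level in the rest: these barcodes held 11.4 CPM of Hist1h2ae, 9.53 CPM of Hist1h1d and 51.5 CPM of Hist1h4i. In the rest these stood at 11.3, 9.03 and 37.2 CPM. Others were lower in these barcodes, such as Hist1h4d at 41.9 CPM (26.3 to 63.5) against 108 CPM in the rest. Hist1h1e stood at 103 against 192 CPM and Hist1h4h at 13.3 against 27.9 CPM. Hist1h3e, from 3 UMIs, stood at 5.72 CPM (1.18 to 16.7) against 15.6 CPM. How much free RNA the cells themselves held was not measured, and 4 control cells outside the cycling set held at least 5 Hist1h1b UMIs, so these levels cannot be assigned to the cells or to free RNA. The same barcodes held 915 CPM of the 54 members together (835 to 1000), 387 CPM of Hist1h2bc and 187 CPM of Hist1h1c, against 1189, 453 and 232 CPM in the rest.

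The other H1 genes fell into an order. Hist1h1a, of which 297 UMIs lay in cycling and 46 in other control cells, was 155 against 1.44 CPM in control (108-fold) and 127 against 1.07 CPM in Isl1CKO (118-fold). Hist1h1d was 282 against 9.03 CPM (31.2-fold) and 190 against 10.98 CPM (17.3-fold). Hist1h1e (chr13:23620629-23622558, minus strand) was 1590 against 192 CPM (8.28-fold, 7.92 to 8.64) and 1117 against 176 CPM (6.36-fold, 6.16 to 6.57), and was found in 81.1% and 84.7% of the cells of the rest. Hist1h1c (chr13:23738808-23740367, plus strand) was 315 against 232 CPM (1.35-fold, 1.24 to 1.47) and 363 against 266 CPM (1.36-fold, 1.30 to 1.43), and so hardly differed between the cell sets. Hist1h1e shares 450 exon bases on its strand with Hist1h2be, and every 50-base stretch of its last 300 bases is found in another gene, so reads of the pair may be divided between them.

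H1 promoters were compared because the 5 genes share a class and a chromosome but not this pattern. In RefSeq promoter windows of 300 bases on GRCm38.p6, from 250 bases before the start to 50 after it, 46 members were matched. The letters of the CCAAT box, of the TATA box as TATAAA, and of the H1 box as AAACACA were searched on both strands; matches to the last pair can share letters. CCAAT was present in 39 of 46 members (84.8%), against 37.9% of 27025 promoters of all genes. It was in all matched members of classes H1 (5), H2A (11), H2B (11) and H3 (9), and in 3 of 10 of H4. TATAAA was present in 29 of 46 (63.0%) against 14.2%. AAACACA was present in 6 of 46 (13.04%) against 7.14%, and 4 of those 6 were H1 genes; Hist1h1a lacked it. The windows of the H1 genes with the largest and the smallest ratio follow, that of Hist1h1b (chr13:21780576-21780875, minus strand) and that of Hist1h1c (chr13:23738557-23738856, plus strand), 5′ to 3′ along the gene, with matches to the motifs in capitals (ATTGG is CCAAT on the other strand).

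Hist1h1b: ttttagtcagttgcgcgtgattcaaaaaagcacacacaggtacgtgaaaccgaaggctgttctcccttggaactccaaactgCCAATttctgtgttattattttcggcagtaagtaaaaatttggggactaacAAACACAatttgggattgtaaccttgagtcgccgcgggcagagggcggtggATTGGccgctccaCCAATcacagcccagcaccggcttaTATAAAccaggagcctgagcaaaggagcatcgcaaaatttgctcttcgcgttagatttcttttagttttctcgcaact
Hist1h1c: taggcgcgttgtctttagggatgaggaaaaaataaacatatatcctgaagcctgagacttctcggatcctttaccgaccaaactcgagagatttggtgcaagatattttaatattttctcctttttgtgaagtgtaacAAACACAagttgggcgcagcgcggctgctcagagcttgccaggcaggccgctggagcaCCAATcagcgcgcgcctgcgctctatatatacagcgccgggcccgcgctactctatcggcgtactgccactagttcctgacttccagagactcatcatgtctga

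Both windows hold CCAAT and AAACACA, and TATAAA is in that of Hist1h1b but not in these letters in that of Hist1h1c. Such matches describe the letters and not a bound factor.

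Class H2A had the steepest summed ratio of the classes in both libraries. Its members summed to 1316 CPM in cycling cells and 37.1 CPM in the rest of control (35.4-fold, 33.1 to 38.0), and to 1038 and 27.5 CPM in Isl1CKO (37.8-fold, 35.8 to 39.9). Hist1h2af was 122 against 0.344 CPM in control (356-fold, 195 to 724) and 96.9 against 0.126 CPM in Isl1CKO (768-fold, 387 to 1789). Hist1h2ab was 128 against 0.938 CPM (136-fold) and 115 against 0.536 CPM (214-fold). The more abundant Hist1h2ae was 663 against 11.3 CPM (58.8-fold) and 449 against 9.90 CPM (45.4-fold), and Hist2h2ac 232 against 13.2 CPM (17.6-fold) and 282 against 12.9 CPM (21.8-fold). Of Hist1h2af, 79.7% of the 50-base stretches are shared with other annotated genes, so its counts depend on how reads matching several copies were assigned.

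Class H3 had ratios of 28.5 in control (26.2 to 31.0) and 16.3 in Isl1CKO (15.3 to 17.3). Hist1h3c (chr13:23744973-23745602, minus strand) was 361 CPM in control cycling cells and 0.781 CPM in the rest, from 689 and 25 UMIs (462-fold, 310 to 718). In Isl1CKO it was 216 and 0.962 CPM (224-fold, 173 to 295). Hist1h3e was 222 against 15.6 CPM (14.3-fold) and 138 against 14.8 CPM (9.33-fold). Hist1h3b, with 16 UMIs in control cycling cells and 0 in the rest, did not pass the filter. Its level in those cells was 8.38 CPM, and no fold is given.

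Class H4 differed less than H2A and H3 in its sums, 5.72-fold in control (5.45 to 6.01) and 5.34-fold in Isl1CKO (5.15 to 5.54). Hist1h4d was 845 against 108 CPM (7.82-fold, 7.36 to 8.29) and 512 against 64.2 CPM (7.97-fold, 7.58 to 8.37). Hist1h4i was 111 against 37.2 CPM (2.99-fold) and 173 against 48.1 CPM (3.60-fold). Hist1h4h was 91.1 against 27.9 CPM (3.27-fold) and 55.1 against 19.96 CPM (2.76-fold). Hist1h4j was 10.99 against 6.78 CPM (1.62-fold, 0.983 to 2.54) and 5.01 against 4.54 CPM (1.10-fold, 0.701 to 1.66), so its intervals include 1 in both libraries.

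Class H2B had the smallest summed ratio, 1.84 in control (1.75 to 1.93) and 1.62 in Isl1CKO (1.57 to 1.67), through a single gene. Hist1h2bc (chr13:23684199-23692908, plus strand, 2 exons) gave 38.1% of all histone UMIs in the rest of control and 40.2% in the rest of Isl1CKO. It was 360 CPM in control cycling cells (334 to 388) and 453 CPM in the rest (446 to 461), a ratio of 0.795 (0.735 to 0.858) that becomes 1.051 when all UMIs are the scale. In Isl1CKO it was 447 and 464 CPM, a ratio of 0.963 (0.922 to 1.01), or 1.08 on all UMIs. It was found in 86.8% and 94.5% of the cells of the rest, and a single such cell held up to 153 UMIs. Without it the other members together were 10.3-fold higher in cycling cells of control and 8.40-fold in Isl1CKO.

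Other H2B genes followed the cell cycle split. Hist1h2bm was 95.3 against 0.719 CPM (133-fold) and 61.7 against 0.615 CPM (100.3-fold). Hist1h2bj was 126 against 1.44 CPM (87.4-fold) and 113 against 2.38 CPM (47.6-fold). Hist2h2be, by contrast, was 7.85 against 6.53 CPM in control (1.202-fold, 0.661 to 2.03) and 11.8 against 4.90 CPM in Isl1CKO (2.41-fold, 1.79 to 3.19). Of the members passing in both libraries, Hist1h2bc, Hist1h1c and Hist1h4j were under 2-fold in both in these counts. The cycling set and the rest also differed in their cell groups, which are defined below. Gcg-rich and insulin-rich cells were 50 and 19 of 99 control cycling cells, against 635 and 917 of all 2502. Outside the cycling set, control Hist1h2bc and Hist1h1c were higher in insulin-rich than in Gcg-rich cells. Ratios within a cell group are not given here, and the part of the groups in these ratios was not tested.

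Outside the cycling cells a few genes made up most of the signal. Hist1h2bc, Hist1h1c, Hist1h1e and Hist1h4d together held 82.9% of histone UMIs in the rest of control and 84.1% in the rest of Isl1CKO. In cycling cells the 4 leading genes were Hist1h1e, Hist1h1b, Hist1h4d and Hist1h2ae in both libraries, with 57.7% and 54.9%. By transcript end, members annotated to end within 100 bases of the stem-loop held 4.21% and 3.86% of the histone UMIs of the rest and were 20.7-fold and 19.3-fold higher in cycling cells in sum. Members running on past it held 54.5% and 53.8%, with sums 6.48-fold and 4.89-fold higher. Those with no stem-loop within the annotated transcript, where the model may stop short of it, held 41.3% and 42.2%. Their sums were 5.30-fold and 4.67-fold higher.

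A set of 5 genes, Hist1h1b, Hist1h3c, Hist1h2ab, Hist1h1a and Hist1h2af, chosen after their ratios were seen, shows how uneven cycling cells were. At least 10 UMIs of the set were held by 43 control and 72 Isl1CKO cycling cells, and by 0 and 1 cells of the rest. No UMI of it was found in 31 of 99 control cycling cells (31.3%) and 25 of 141 Isl1CKO cycling cells (17.7%).

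Cycling cells differed from the rest in other ways as well. Their median depth was 28111 UMIs against 22370 in control and 35169 against 24368 in Isl1CKO. With each cell thinned to 5000 UMIs and cycling called anew, the summed ratios were 10.2 and 8.38. Hormones took 39.0% of UMIs in control cycling cells against 53.9% in the rest, and 2.00% against 12.9% in Isl1CKO. The 6 mesenchymal markers summed to 408 CPM in control cycling cells and 248 CPM in the rest, with Lum at least 2-fold higher in cycling cells of both libraries and Pdgfrb at 4 UMIs in control and 0 in Isl1CKO cycling cells. Erythroid markers summed to 0.524 CPM in control cycling cells against 1397 CPM in the rest, and acinar markers to 209 against 1490 CPM. Their part in the histone difference was not tested.

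Within the cycling cells the members were ordered by how far each cell leaned to S phase. For each cell the UMIs of 24 S-phase genes (such as Mcm5, Tyms and Ccne2) were divided by those of these genes plus 24 genes of G2 and mitosis (such as Ccnb1, Plk1 and Cenpf); no histone gene is on either list. By the larger of the sums, 44 control cells leaned to S and 55 to M, and 63 and 78 Isl1CKO cells did.

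Summed over cells, histone transcripts were lower in the S-leaning cells of both libraries, but the median cell followed this in control only. In control the members summed to 3049 CPM (2930 to 3172) in S-leaning and 11476 CPM in M-leaning cells, a ratio of 0.266 (0.254 to 0.278). In Isl1CKO they summed to 5343 CPM (5249 to 5437) and 7024 CPM (6924 to 7126), a ratio of 0.761 (0.743 to 0.778). The median S-leaning cell held 773 CPM in control, where the median M-leaning cell held 10243 CPM. In Isl1CKO the median was higher in S-leaning cells, 5626 CPM against 3032 CPM. Of 31 members passing in control, 28 were at least 2-fold lower in S-leaning cells, where 5.66% of 8442 genes were, and 0 were 2-fold higher, against 6.85%. Of 42 passing in Isl1CKO, 4 were 2-fold lower, against 5.41% of 10108 genes, and 0 were higher, against 3.12%; that share of members is near the share of all genes lower.

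The least unequal members in control were Hist1h2an (0.599), Hist1h3a (0.544), Hist1h4i (0.532), Hist1h2be (0.402) and Hist1h1d (0.362). The lowest were Hist1h2ab (0.143), Hist1h3f (0.140) and Hist1h2bl (0.118, from 3 and 35 UMIs). Hist1h1b was 555 CPM in S-leaning and 2149 CPM in M-leaning control cells. In Isl1CKO it was 1244 and 1438 CPM, although its median cell there was higher in S-leaning cells (860 against 101 CPM), as was that of Hist1h1e (848 against 389 CPM). The highest summed ratios in Isl1CKO were those of Hist2h3b (1.33), Hist1h3b (1.28), Hist1h2ai (1.14), Hist1h2an (1.09) and Hist1h1d (1.01). The lowest there were Hist1h2ag (0.465), Hist1h2bf (0.370) and Hist1h2bp (0.176).

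A split into 4 bands of like cell number by the S share, added after the data were seen, showed a peak between the ends. In control, band 1 (S share 0 to 6.93%) held 2462 CPM of the members and band 2 (8.39 to 41.6%) 17955 CPM (17599 to 18317). Band 3 (42.1 to 86.3%) held 8428 CPM and band 4 (87.1 to 98.9%) 694 CPM (617 to 778). In Isl1CKO, band 1 (1.66 to 10.8%) held 1807 CPM and band 2 (11.5 to 41.1%) 11042 CPM (10860 to 11226). Band 3 (41.4 to 70.5%) held 9245 CPM (9080 to 9412) and band 4 (72.1 to 100%) 2381 CPM. The middle bands were thus far above both ends in both libraries. The S end lay below the 1189 CPM of cells outside the cycling set in control and above the 1153 CPM of such cells in Isl1CKO.

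Single cells showed the same shape. The median cell of bands 1 to 4 held 1839, 17043, 7159 and 644 CPM in control, and 1269, 11970, 8547 and 1249 CPM in Isl1CKO. A Hist1h1b UMI was found in 24 of 25 cells of control band 2 (96.0%) and 9 of 24 of band 4 (37.5%). In Isl1CKO it was found in 35 of 35 cells of band 3 and 24 of 35 of band 4 (68.6%).

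**Figure D2:**
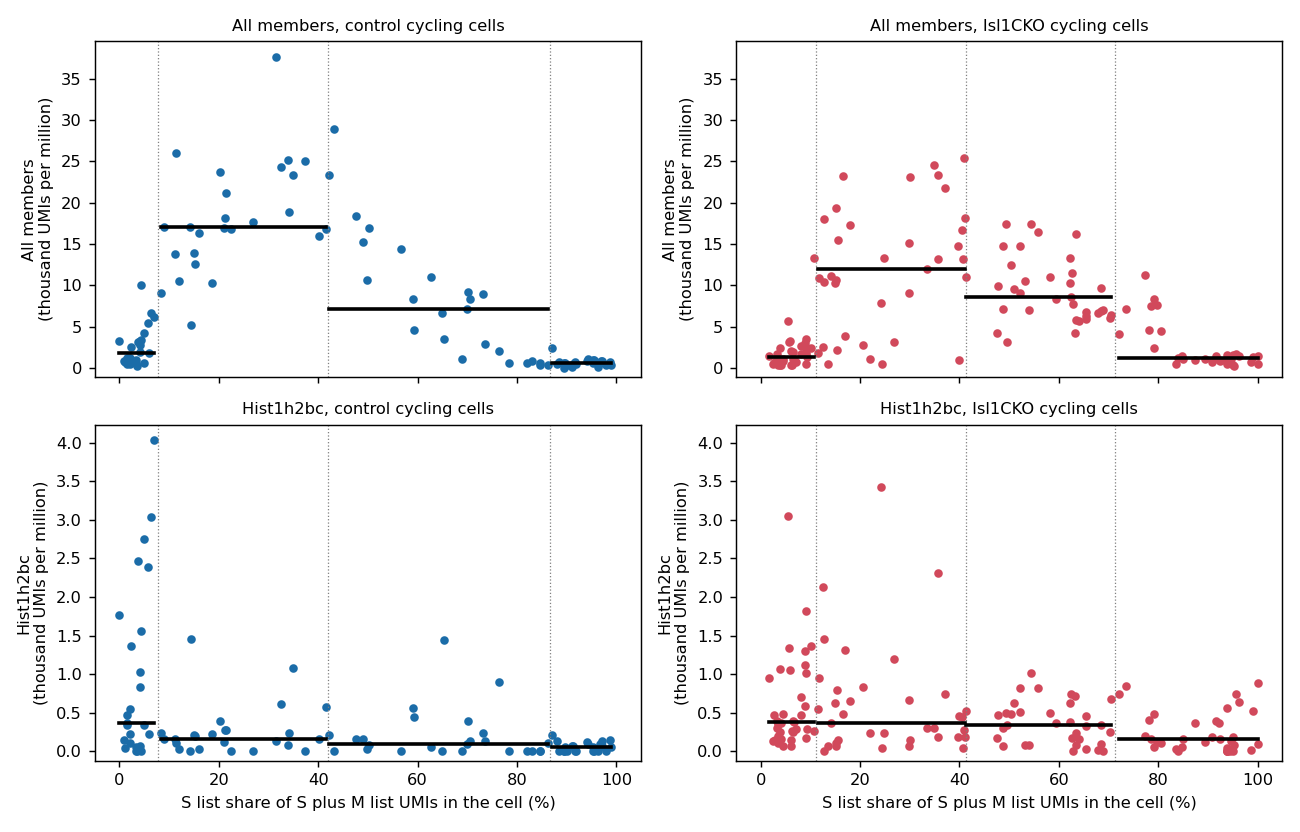
Summed members (top) and Hist1h2bc (bottom) in each cycling cell, in 1000 UMIs per 1000000 non-hormone UMIs, against the S list's share of S plus M list UMIs in that cell (percent), for 99 control cells (blue, left) and 141 Isl1CKO cells (red, right); dotted lines part the bands and bars are band medians. Member sums peak in the second band, at a median of 17043 CPM in control and 11970 CPM in Isl1CKO, while Hist1h2bc has no such peak.

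The peak was seen in nearly all members with at least 40 UMIs in cycling cells, a sum that cells of the middle bands alone could supply. How many of all genes were highest in each band was not counted, so the counts that follow describe these members only. In control 26 of 28 were highest in band 2, with Hist1h2bc highest in band 1 and Hist1h3a in band 3. In Isl1CKO 23 of 31 were highest in band 2, Hist1h2bc again in band 1, and 7 in band 3 (Hist1h2ae, Hist1h2an, Hist1h2bj, Hist1h3a, Hist1h3b, Hist1h3i and Hist1h4i). Hist1h1b ran 122, 3449, 1868 and 35.4 CPM through the control bands and 76.5, 2460, 2249 and 458 CPM through those of Isl1CKO. Hist1h1c ran 222, 599, 322 and 47.2 CPM and 244, 516, 492 and 187 CPM, so that a gene with little difference between cycling cells and the rest also peaked in the middle. Hist1h2bc ran 842, 262, 264 and 61.4 CPM and 589, 559, 385 and 280 CPM, highest at the M end and lowest at the S end.

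Other genes that act around histones took other courses. Slbp, whose product binds the stem-loop, ran 12.8, 65.1, 123 and 191 CPM through the control bands, highest at the S end, and 6.30, 40.9, 52.5 and 27.3 CPM through those of Isl1CKO. Cenpa, the centromeric H3 variant, ran from 1456 to 4.72 CPM in control and from 1240 to 3.04 CPM in Isl1CKO, highest at the M end. H2afz, a replacement variant of H2A, ran 834, 835, 515 and 460 CPM in control and 755, 615, 501 and 298 CPM in Isl1CKO.

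Other genes of histone supply were read from 4 lists chosen with earlier results of these data known. Replacement variants, which are made from polyadenylated messages and placed in chromatin outside replication, held 14 genes passing of 16, and 7 were at least 2-fold higher in cycling cells of each library, against 7.43% of all genes in control and 6.0% in Isl1CKO. Their highest ratios were those of Cenpa (30.3 in control and 23.6 in Isl1CKO), H2afx (12.2 and 11.7), which marks DNA breaks once phosphorylated, and H2afz (5.54 and 5.74). H3f3b, a gene of histone H3.3, was 2150 against 1189 CPM in control (1.81-fold) and 2507 against 1338 CPM in Isl1CKO (1.87-fold). H1f0, the linker histone of resting cells, was 1.79-fold and 2.23-fold higher. The lowest were H2afj (0.980) and Hist3h2ba (0.739) in control and H3f3a (1.13) and Hist3h2ba (0.688) in Isl1CKO. In S-leaning against M-leaning cells 8 of the 14 were at least 2-fold lower in each library, against 5.66% of all genes in control and 5.41% in Isl1CKO, with H2afz at 0.568 in control and 0.556 in Isl1CKO, while Slbp stood at 3.08 and 1.52.

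Of 23 genes for the processing and decay of histone messages, 22 passed in both libraries and 7 in control and 5 in Isl1CKO were at least 2-fold higher in cycling cells, against 7.43% and 6.0% of all genes. Slbp was 94.8 against 13.3 CPM in control (7.13-fold) and 32.6 against 8.20 CPM in Isl1CKO (3.98-fold). Eri1, an exonuclease that trims the stem-loop end, was 118 against 18.04 CPM (6.53-fold) and 79.3 against 9.86 CPM (8.04-fold). Lsm11, a part of the U7 particle that directs the cut, was 3.49-fold and 2.46-fold higher, and Nelfe, a subunit of the elongation factor NELF, 2.86-fold and 2.60-fold. The lowest were Cpsf3 (0.646) and Sympk (0.828) in control and Sympk (0.711) and Cstf2t (0.798) in Isl1CKO; Cpsf3 is the cutting nuclease and Sympk its scaffold.

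Of 25 histone chaperones and their partners, 9 of 24 passing in control and 10 of 25 in Isl1CKO were at least 2-fold higher in cycling cells, against 7.43% and 6.0% of all genes. Asf1b, which hands H3 and H4 to the assembly factors, was 160 against 1.38 CPM in control (116-fold) and 114 against 2.08 CPM in Isl1CKO (54.6-fold). Chaf1b and Chaf1a, subunits of the assembly factor CAF-1, were 19.7-fold and 16.7-fold higher in control and 16.1-fold and 17.6-fold in Isl1CKO. The lowest were Tonsl (0.629) and Ipo4 (0.684) in control and Spty2d1 (0.598) and Ipo4 (0.600) in Isl1CKO. Replication and nucleotide genes were at least 2-fold higher throughout, 26 of 26 passing in control and 28 of 28 in Isl1CKO, against the same 7.43% and 6.0%. The highest passing in control were Tk1 (103-fold), Tyms (20.3-fold) and Rrm1 (14.2-fold) and in Isl1CKO Tk1 (105-fold), Pole (28.3-fold) and Tyms (21.4-fold); the lowest were Pold3 (2.62-fold and 2.67-fold) and Dut (4.41-fold and 4.05-fold).

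The comparison of the libraries over all cells asks how these transcripts differ with the Isl1f/f genotype. The members summed to 1569 CPM in control (1556 to 1583) and 1524 CPM in Isl1CKO (1515 to 1534), a ratio of 0.971 (0.961 to 0.982). This direction depends on the scale. With all UMIs as the scale every ratio between the libraries is multiplied by 1.88, the sum becomes 1.83-fold higher in Isl1CKO, and the median gene moves from 0.781 to 1.47. Relative to the median gene the sum was 1.24-fold higher in Isl1CKO. The direction of the sum is therefore not settled by these data, and single members are best read against the median gene.

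Few members differed by 2-fold between the libraries with the hormone UMIs left out of the scale, though more were higher in Isl1CKO on all UMIs. Of 50 passing, 2 were at least 2-fold higher in Isl1CKO, against 3.56% of 16334 genes, and 4 were at least 2-fold lower, against 14.1%. The median ratio of the members passing was 0.910 and that of all genes 0.781. The classes had ratios of 1.04 for H1 (1.02 to 1.052), 0.928 for H2A, 1.01 for H2B, 0.888 for H3 and 0.777 for H4 (0.756 to 0.798). Each class was above 1 when all UMIs were the scale, and relative to the median gene they ran from 0.995 for H4 to 1.33 for H1.

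The 12 members with the most UMIs stayed within 2-fold in this comparison on the scale without hormone UMIs. Hist1h2bc had 448 CPM (control) and 463 CPM (Isl1CKO), a ratio near 1 (1.03, 1.01 to 1.053), Hist1h1c 237 and 273 CPM (1.15), and Hist1h1e 271 and 244 CPM (0.903). Hist1h1b was 88.4 and 102 CPM (1.15), Hist1h1d 24.4 and 24.0 CPM (0.985), and Hist1h4i 41.3 and 57.2 CPM (1.38). Hist1h4d was 150 and 96.9 CPM (0.648, 0.624 to 0.672), Hist1h4h 31.4 and 22.5 CPM (0.716), and Hist1h3c 21.1 and 16.6 CPM (0.790). Hist1h2ae was 48.0 and 42.0 CPM (0.875), Hist2h2ac 25.5 and 32.5 CPM (1.28), and Hist1h3e 27.2 and 23.8 CPM (0.876). Of these, Hist1h4d and Hist1h4h alone lay below the median gene.

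The members with the largest differences were sparse. The highest ratios were those of Hist1h2ag (2.68, 1.44 to 5.46, from 65 and 12 UMIs), Hist1h3b (2.04, from 66 and 16 UMIs), Hist1h3d (1.73), Hist1h3g (1.54) and Hist1h2bp (1.51). Among the lowest, control Hist2h4 stood at 5.55 CPM and Isl1CKO Hist2h4 at 1.96 CPM (0.353, 0.281 to 0.443), Hist1h2bl 1.59 and 0.556 CPM (0.349) and Hist2h2ab 1.77 and 0.658 CPM (0.372). With all UMIs as the scale these 3 stood at 0.664, 0.655 and 0.698.

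Hist1h2al was the member with the lowest ratio, and it stayed at least 2-fold lower in Isl1CKO on each scale. It was 8.41 CPM in control (285 UMIs) and 0.994 CPM in Isl1CKO (68 UMIs), a ratio of 0.118 (0.0894 to 0.155), 0.222 on all UMIs and 0.151 relative to the median gene. The annotation calls it a processed pseudogene (chr13:51202727-51203065, minus strand), apart from the histone cluster, and 67.6% of its 50-base stretches are shared with other genes, so the count may hold reads of other H2A copies. In control cells outside the cycling set it was 8.96 CPM in insulin-rich, 6.15 in Gcg-rich, 4.90 in Sst-rich and 8.48 in Ppy-rich cells. In Isl1CKO it was 0.856 CPM in insulin-rich, 0.581 in Ttr-rich and 0.149 in Chgb-rich cells and 0.971 in the remainder. Each Isl1CKO group described thus lay below each control group, the lowest of which, the remainder, had 2.02 CPM from 4 UMIs (0.550 to 5.17).

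**Figure D3:**
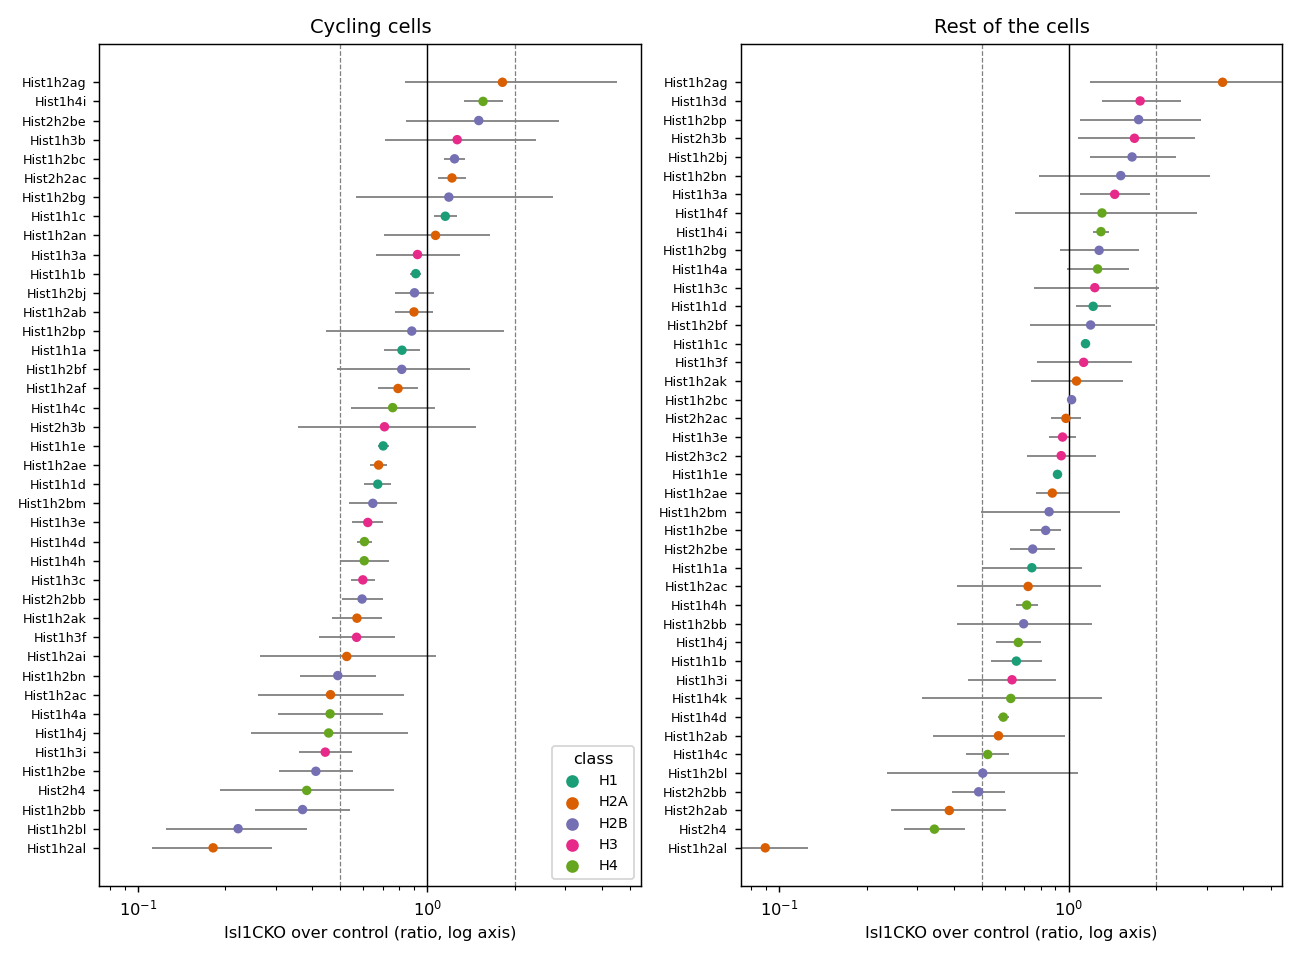
Ratio of Isl1CKO to control (log axis, CPM outside the hormone genes) for the 41 members passing in cycling cells (left) and the 42 passing in the rest (right), coloured by class; lines are exact 95% counting intervals, cut at the edge of the right panel for Hist1h2ag and Hist1h2al, and dashed lines mark 2-fold. Hist1h2al is the lowest in both panels, at 0.181 and 0.0893.

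Among cycling cells the summed members were lower in Isl1CKO with the hormone UMIs left out of the scale, while the median cell was not. They summed to 7933 CPM in control and 6239 CPM in Isl1CKO, a ratio of 0.786 (0.771 to 0.802), but 1.26 with all UMIs as the scale and 1.048 relative to the median gene. The median cycling cell held 3548 CPM in Isl1CKO and 3097 CPM in control, and for Hist1h1b 305 and 118 CPM. Of 41 passing, 0 were at least 2-fold higher, against 2.75% of 10105 genes, and 10 were lower, against 16.2%. The highest were Hist1h2ag (1.82), Hist1h4i (1.56), Hist2h2be (1.504), Hist1h3b (1.27) and Hist1h2bc (1.24, 1.14 to 1.35), and the lowest Hist1h2bb (0.370), Hist1h2bl (0.221) and Hist1h2al (0.181). Hist1h1b was 1479 and 1347 CPM (0.911, 0.872 to 0.952) and Hist1h3c 361 and 216 CPM (0.598). The libraries' cycling cells were also spread differently over the S share, as the band limits show; within the middle bands the control sum was 13454 CPM and the Isl1CKO sum 10136 CPM (0.753, 0.738 to 0.769).

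Outside the cycling cells the sums were 1189 and 1153 CPM, a ratio of 0.970 (0.958 to 0.982), 1.83 with all UMIs as the scale and 1.23 relative to the median gene. Of 42 passing, 1 was at least 2-fold higher, against 3.66% of 16216 genes, and 4 were lower, against 13.7%. The highest were Hist1h2ag (3.41, 1.19 to 13.4, from 27 and 4 UMIs), Hist1h3d (1.77), Hist1h2bp (1.74), Hist2h3b (1.69) and Hist1h2bj (1.66). The lowest were Hist2h2ab (0.386), Hist2h4 (0.343) and Hist1h2al (0.0893).

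The libraries hold different cells, so the members were also read by cell group. Cells were grouped by the hormone that took the largest share of their UMIs, where this was at least 5%, then by Ttr at 5% or Chgb at 3%; the groups are ranges of a share and not cell types, and 62 control and 68 Isl1CKO cells had a top hormone share between 4% and 6%. Gcg-rich, Sst-rich and Ppy-rich cells were described in control only and Ttr-rich and Chgb-rich cells in Isl1CKO only, since the other library held fewer than 50 of each.

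Outside the cycling set, insulin-rich cells had the highest summed level in both libraries with the hormone UMIs left out of the scale. The groups differ in hormone share by their rule. Levels by group with all UMIs as the scale were not computed, so this order need not hold there. In control they held 1563 CPM (1541 to 1584), Sst-rich cells 1054 CPM, Ppy-rich cells 1040 CPM, the remainder 979 CPM and Gcg-rich cells 795 CPM (776 to 814). The intervals of Sst-rich and Ppy-rich cells overlapped, and so did those of Ppy-rich cells and the remainder. In Isl1CKO insulin-rich cells held 1536 CPM (1512 to 1560), Chgb-rich cells 1286 CPM, the remainder 1198 CPM and Ttr-rich cells 1014 CPM (1004 to 1025).

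Hist1h2bc and Hist1h1c followed this order in control more than Hist1h1e did. Hist1h2bc was 715 CPM in insulin-rich and 195 CPM in Gcg-rich cells, and Hist1h1c 339 and 129 CPM. Hist1h1e was 162 CPM in insulin-rich and 191 CPM in Gcg-rich cells, and 240 CPM in Sst-rich cells. In Isl1CKO, Hist1h2bc was 535 CPM in insulin-rich, 473 CPM in Ttr-rich and 448 CPM in Chgb-rich cells. Hist1h1e was 276 CPM in insulin-rich and 106 CPM in Ttr-rich cells. Insulin-rich cells were also the deepest of the control, with a median of 48126 UMIs against 20560 in Gcg-rich cells.

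Cycling cells lay mainly in other groups than the insulin-rich cells. In control 50 of 635 Gcg-rich cells were cycling (7.87%, 5.90 to 10.2), against 19 of 917 insulin-rich (2.07%, 1.25 to 3.22), 16 of 490 Sst-rich (3.27%) and 8 of 244 Ppy-rich cells (3.28%). In Isl1CKO 119 of 1428 Ttr-rich cells were cycling (8.33%, 6.95 to 9.89), against 5 of 573 insulin-rich (0.873%, 0.284 to 2.02) and 3 of 396 Chgb-rich cells (0.758%). Median UMIs per cell, hormones included, were 48126 in insulin-rich and 20560 in Gcg-rich control cells. In Isl1CKO they were 32493 in insulin-rich and 28941.5 in Ttr-rich cells. Depth outside the hormones was not compared by group, and the part of depth in these shares was not tested.

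**Figure D4:**
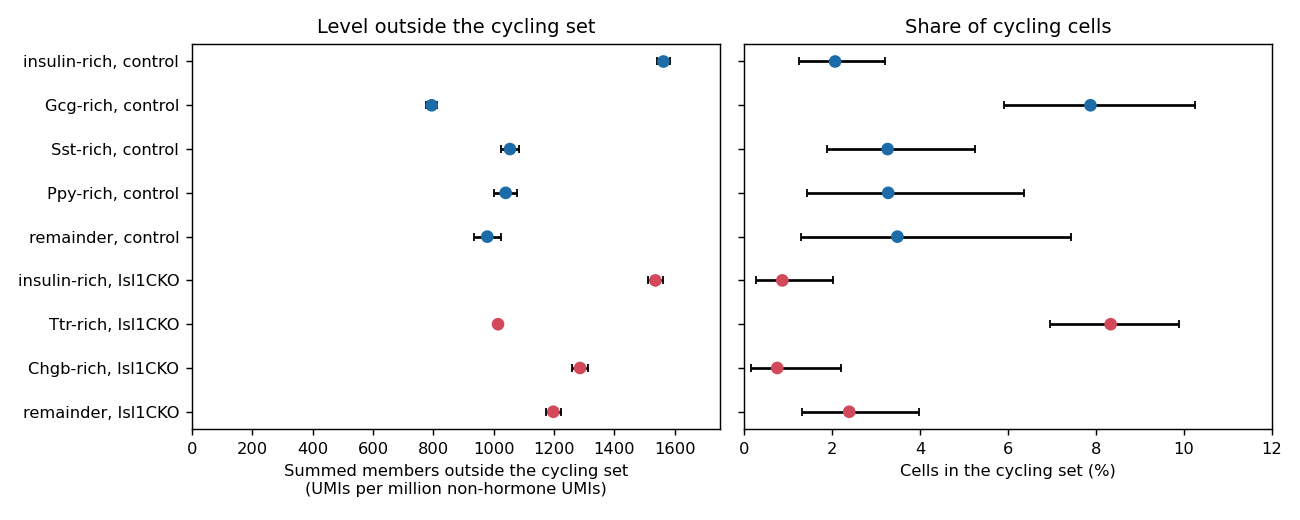
Summed members outside the cycling set (left, UMIs per 1000000 non-hormone UMIs) and share of cycling cells (right, percent) in each cell group of the control (blue) and Isl1CKO (red) library; bars are exact 95% intervals for counting error. Insulin-rich cells have the highest levels on this scale, 1563 and 1536 CPM, and Gcg-rich control and Ttr-rich Isl1CKO cells the largest cycling shares, 7.87% and 8.33%.

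Insulin-rich cells are the only hormone-rich group described in both libraries. The remainder was also described in both, at 979 CPM in control (936 to 1023) and 1198 CPM in Isl1CKO (1174 to 1221) outside the cycling set. In insulin-rich cells the members summed to 1638 CPM in control and 1585 CPM in Isl1CKO, a ratio of 0.968 (0.948 to 0.987). That ratio was 1.69 with all UMIs as the scale and 1.06 relative to the median gene. Of 36 passing, 2 were at least 2-fold higher, against 6.12% of 13538 genes, and 1 was lower, against 7.11%. On this scale near-equal sums held opposite differences of the classes: H1 summed to 548 CPM for control and 756 CPM for Isl1CKO (1.38, 1.34 to 1.42), and H2B was 767 and 574 CPM (0.748, 0.725 to 0.772). Relative to the median gene these were 1.52 and 0.823, and on all UMIs H2B was 1.30.

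Among insulin-rich cells, Hist1h1e stood at 176 CPM in control and 286 CPM in Isl1CKO (1.63, 1.54 to 1.72) and Hist1h1c 339 and 435 CPM (1.29, 1.23 to 1.34). Hist1h2bc was 718 and 538 CPM (0.749, 0.725 to 0.774), or 1.30 on all UMIs. The highest ratios were those of Hist2h3b (3.25, from 28 and 11 UMIs), Hist1h2bf (2.30, from 18 and 10 UMIs), Hist1h1e, Hist1h3a (1.5) and Hist1h1d (1.43). The lowest were Hist2h2bb (ENSMUSG00000105827, 0.520), Hist1h4j (0.511) and Hist1h2al (0.103). Leaving out cycling cells gave 0.983 for the sum (0.963 to 1.00), 1.42 for H1 and 0.751 for H2B, with 2 of 32 passing higher, against 6.37% of 13428 genes, and 2 lower, against 6.61%.

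Among the other genes of histone supply, few differed by 2-fold between the libraries over all cells on the scale without hormone UMIs. Of 14 replacement variants passing, H1fx, a linker histone variant, stood at 103 CPM in control and 220 CPM in Isl1CKO (2.14, 2.06 to 2.22), and Hist4h4 at 6.49 and 2.95 CPM (0.455); H2afj stood at 1.08 and H2afy at 0.679. H2afz was 152 and 125 CPM (0.822), H2afx 91.6 and 85.3 CPM (0.932), H3f3b 1243 and 1424 CPM (1.15) and H1f0 312 and 247 CPM (0.792). Slbp was 17.9 and 9.98 CPM (0.558, 0.500 to 0.624), under the median gene, and neither it nor any other of the 23 processing genes or 25 chaperones passed 2-fold. The highest of these were Lsm11 (1.054), Sympk (0.992) and Nelfe (0.928) and Tonsl (1.004), Asf1b (0.991) and Npm1 (0.980), and the lowest, beside Slbp, were Zfp473 (0.515), Chaf1a (0.507) and Mcm2 (0.513). None of 29 replication genes passed 2-fold on that scale either, with Rrm2 (1.24), Dut (1.203) and Gins2 (1.02) highest and Mcm4 (0.545) and Mcm3 (0.539) lowest. With all UMIs as the scale each of these ratios is multiplied by 1.88. The genes past 2-fold are then others, apart from H1fx, which was past it on both scales. Rrm2 then stood at 2.33, Dut at 2.26, H3f3b at 2.15, H2afj at 2.03 and H1fx at 4.02, while Hist4h4 stood at 0.855. Lsm11, the highest of the processing genes and chaperones, stood at 1.98 on that scale.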

How the data were processed

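The authors deposited whole-number UMI counts per gene and barcode, not normalized, per the labels and the values, for 1 control and 1 Isl1CKO library of sorted islet cells. Reads went through STARsolo of STAR 2.7.3a on GRCm38.p6, with Seurat 4.3.0.1 also listed, per the submitters' processing notes. The annotation release and how reads matching several gene copies were counted are not given in the sources used here. The control matrix listed 6794880 barcodes and had not been filtered, and the Isl1CKO matrix listed 3020, the lowest with 4882 UMIs.

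Control barcodes were called cells at 6825 UMIs, 0.1 times the UMIs at percentile 99 among the 3000 largest barcodes, and all Isl1CKO barcodes were kept. Cells needed at most 15% mitochondrial UMIs. Doublets were not removed; removing those marked by Scrublet (scanpy 1.11.5), 61 control cells (2.44%) and 9 Isl1CKO cells (0.301%, below the expected 2.39%), was an alternative. The members and gene lists were chosen with earlier results of these data known. UMIs were summed per cell set. Ratios carry exact conditional binomial, sums exact Poisson and shares exact Clopper-Pearson intervals at 95%. Because each genotype is 1 library, genes were counted by a fixed size of 2-fold, not by a test. The filter asked for 10 expected UMIs in the smaller set. Genes are named by rule: the 12 members with most UMIs, the 5 highest and 3 lowest ratios per comparison, and the 3 highest and 2 lowest per list, plus Slbp, H2afz, H3f3b, H2afx and H1f0. Members picked out beyond it, such as the 5 genes counted per cell, were chosen after their values were seen.

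Coordinates and transcripts come from GENCODE M21, which holds 46488 of 46983 identifiers, and promoters from RefSeq. Hist1h2bm and Hist1h2bh were not matched. Hist2h2bb is the symbol of 2 rows, told apart by identifier. In counts simulated with counting error only, 144 of 145 genes with a 3-fold or larger difference and 56 of 16536 unchanged genes (0.339%) were called between libraries, and 150 of 150 and 51 of 10444 (0.488%) between control cycling cells and the rest. In the simulated cycling comparison the changed genes were drawn from genes with more expected UMIs than the filter asks. Recovery near the filter was therefore not measured there. Alternatives varied the barcode threshold, mitochondrial filter, doublets, minimum genes, scale, filter, cycling rule, depth and weighting of cells. Scripts ran on Python 3.11.15 with pandas 2.3.3, numpy 2.4.6, matplotlib 3.10.9 and scipy 1.17.1.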

Additional observations from a re-analysis of the deposited data

Results flagged for a closer look

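The ratio between the cycling cells with the highest and the lowest S share was below 1 in control and at or above 1 in Isl1CKO. With the cells in 3 bands by S share, the summed members of the S end over the M end were 0.195 in control and 1.01 in Isl1CKO, and with 4 bands 0.282 and 1.32. In Isl1CKO the median cells of the outer 2 of the 4 bands were close, at 1249 CPM (S end) and 1269 CPM (M end), and the 90th percentile of the S end was 7359 CPM, against 3157 CPM at the M end. The difference between the libraries was not tested, since each is 1 library. Band 4 of the 4 of Isl1CKO reached down to an S share of 72.1%, that of control to 87.1%, and its cells were deeper (median 37822 against 24105 UMIs); the part of either in the difference was not tested.

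Control barcodes with at least 1000 UMIs under the cell threshold, which no comparison of the report uses, also held histone transcripts. These 872 barcodes had a median of 2160 UMIs and a median mitochondrial share of 20.4%, and their members summed to 592 CPM (558 to 627), below the 1189 CPM of called control cells outside the cycling set. Hist1h1b stood at 21.7 CPM in them, from 42 UMIs, and 6 of them met the rule for cycling cells.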

How the results depend on the processing

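Of 181 values under the alternatives, 110 stayed within the interval of the reported value, or within 1.5 times a reported count, and 71 moved; 0 reversed a value past 2-fold, though ratios near 1 crossed it, and the cause was not tested. No paired analysis was possible because each genotype has 1 library. Depth limited the members compared: 28 of 54 in control and 23 of 54 in Isl1CKO did not pass the filter between cycling cells and the rest. For the ratio of Isl1CKO to control over all cells (0.971), the values were 1.83 on all UMIs, 1.24 relative to the median gene, 1.02 thinned to 5000 UMIs, 1.01 as a mean over cells, 0.983 with control barcodes from 1000 UMIs and 0.947 without Hist1h2bc. Members at least 2-fold higher there (2) were 20 on all UMIs, 1 without Scrublet doublets and 0 with a filter of 50 expected UMIs; those lower (4) were 2 on all UMIs and 2 with that filter. The cycling ratios of control and Isl1CKO (6.67 and 5.41) were 8.82 and 6.09 on all UMIs, 7.31 and 6.37 relative to the median gene, 5.98 and 4.58 with cycling cells called at 3 UMIs, 8.24 and 6.62 at 10 UMIs, 7.07 and 5.74 by Mki67, 10.2 and 8.38 thinned, 6.27 and 5.25 as means over cells, and 10.3 and 8.40 without Hist1h2bc. Members at least 2-fold higher in cycling cells (21 and 25) were 44 and 45 with no filter and 7 and 12 with the filter of 50. The S to M ratio of control (0.266) was 0.25 relative to the median gene, 0.254 as a mean over cells, 0.195 between the outer of 3 bands by S share and 0.282 between the outer of 4 bands; that of Isl1CKO (0.761) was 1.01 and 1.32 by 3 and 4 bands. Members lower in S-leaning control cells (28) were 10 by 4 bands. In Isl1CKO those lower (4) were 9 with no filter, 0 with the filter of 50, 1 by 3 bands and 2 by 4 bands, and those higher (0) were 1 by 3 bands and 6 by 4 bands. The cycling share of control (3.96%) was 2.84% at 10 UMIs, 5.36% by Mki67 and 1.96% thinned; that of Isl1CKO (4.71%) was 6.02% at 3 UMIs, 3.54% at 10 UMIs and 2.38% thinned. The library ratio in cycling cells (0.786) was 0.771 without doublets, 1.26 on all UMIs, 1.048 relative to the median gene, 0.745 at 3 UMIs, 0.829 by Mki67, 0.871 thinned, 0.854 as a mean over cells, 0.765 without the member with most UMIs and 0.753 in the middle 2 of 4 bands. In the rest (0.970) it was 1.83 on all UMIs, 1.23 relative to the median gene, 1.02 by Mki67, 1.06 thinned, 1.02 as a mean over cells and 0.936 without that member. In insulin-rich cells (0.968) it was 0.942 without doublets, 1.69 on all UMIs, 1.06 relative to the median gene, 0.913 thinned, 0.996 as a mean over cells and 1.14 without that member. The division into 4 bands by S share, the comparison of the middle bands and the minimum of 500 genes per cell were added after the data were seen.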
